A study of Mus musculus with 12 samples.

Results

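Osgin1 encodes an oxidative stress-induced growth inhibitor, and it is described here together with 9 genes of the NRF2 pathway in livers of germ-free male mice that had received ghrelin or PBS. The 10 genes were taken by symbol from the count table, where they match 11 of 38087 rows because 2 rows carry the symbol Mafg. Osgin1 was chosen because it had come out higher with ghrelin in these libraries, so its difference between the groups is given as a description. The other 9 genes were chosen for their place in the pathway. Here the question was whether they follow Osgin1 between the groups and from library to library.

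The ghrelin group (n = 6) was injected under the skin with rat ghrelin, a stomach hormone that stimulates feeding and growth hormone release, at 10 µg per mouse daily for 5 days. The PBS group (n = 6) had phosphate-buffered saline in its place. All mice were C57BL/6j males of 13 to 16 weeks kept germ-free, that is without a gut microbiota, and the labels place both the injections and the sampling at zeitgeber time 2, early in the light phase. No label gives the interval between the last injection and sampling. Total RNA depleted of ribosomal RNA was sequenced, and the values are read counts per gene. Libraries held 15775059 to 21457627 counts with ghrelin and 18746597 to 22302533 with PBS, ranges that overlap (p = 0.0671, exact permutation test, two-sided). The 6 hepatocyte markers (Alb, Ttr, Apoa1, Cps1, Fgb and Serpinc1) summed to 78732 to 96683 CPM (read counts scaled to library size) with ghrelin and 82331 to 114230 CPM with PBS (exact two-sided permutation p = 0.119, adjusted 0.317). Most of this sum was Alb, with a mean of 61550 CPM.

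NRF2, the product of Nfe2l2, is a transcription factor that is held at low levels by Keap1, an adaptor that hands it to a ubiquitin ligase for degradation. Oxidants and electrophiles modify Keap1, NRF2 then accumulates, pairs with a small MAF protein such as that of Mafg and binds antioxidant response elements near genes of glutathione synthesis, thioredoxin recycling and quinone reduction. Much of this control acts on the protein, so the Nfe2l2 transcript need not follow it. In human cells OSGIN1 has been described as a target of both NRF2 and p53.

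Promoter sequence is shown for Osgin1, for Nqo1, the classical target and the other row with the lowest unadjusted p, and for Gclm and Srxn1, whose windows hold the motifs searched. The windows are the 250 bases before the RefSeq start on GRCm38.p6, 5′ to 3′ on the strand of the gene. Capitals mark matches on either strand to TGACNNNGC, the core of the antioxidant response element, or to TGACTCA, the AP-1 element that also forms the centre of Maf recognition elements.
Osgin1, chr8:119436897-119437146, plus strand: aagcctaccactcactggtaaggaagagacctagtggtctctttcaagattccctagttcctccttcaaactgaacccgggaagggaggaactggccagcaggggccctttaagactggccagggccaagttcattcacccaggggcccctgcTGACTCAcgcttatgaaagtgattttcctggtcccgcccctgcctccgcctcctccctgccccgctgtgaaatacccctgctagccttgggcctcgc
Nqo1, chr8:107403206-107403455, minus strand: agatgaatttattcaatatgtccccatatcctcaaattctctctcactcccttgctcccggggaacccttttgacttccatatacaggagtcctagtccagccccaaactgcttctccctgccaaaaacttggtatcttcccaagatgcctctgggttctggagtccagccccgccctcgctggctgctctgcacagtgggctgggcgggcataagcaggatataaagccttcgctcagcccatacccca
Gclm, chr3:122245307-122245556, plus strand: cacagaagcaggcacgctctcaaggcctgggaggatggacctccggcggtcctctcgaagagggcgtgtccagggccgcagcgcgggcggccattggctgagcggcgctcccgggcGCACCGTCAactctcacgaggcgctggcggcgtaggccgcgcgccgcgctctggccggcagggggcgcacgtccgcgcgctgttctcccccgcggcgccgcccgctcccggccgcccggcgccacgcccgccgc
Srxn1, chr2:152105274-152105523, plus strand: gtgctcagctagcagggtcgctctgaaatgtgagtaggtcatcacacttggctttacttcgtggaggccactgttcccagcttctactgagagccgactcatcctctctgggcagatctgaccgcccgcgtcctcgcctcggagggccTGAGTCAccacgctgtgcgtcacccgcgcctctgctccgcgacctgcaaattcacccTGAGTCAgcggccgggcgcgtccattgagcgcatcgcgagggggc
The Osgin1 window held 1 TGACTCA, from 97 to 91 bases before the start, and no TGACNNNGC. Srxn1 held 2 matches to TGACTCA on the minus strand of the gene, and Gclm held 1 match to TGACNNNGC, GCACCGTCA, on that strand. Nqo1 held neither in these letters within its 250 bases, and sequence farther upstream was not searched for any gene. Of the members, 8 had an entry in the promoter table, and a TGACNNNGC match was found for 4 of them (Gclm, Txnrd1, Nfe2l2 and Mafg; for Txnrd1 in 1 of its 3 windows), against 10.2% of all 32851 windows. TGACTCA was found for 2 of the 8 (Osgin1 and Srxn1), against 4.46% of all windows. For both motifs the members are counted by gene, in any window, and the background by window, so the shares are in unlike units. The RefSeq start of Osgin1 lies inside the GENCODE M21 span of the gene (chr8:119434124-119446256, plus strand), so other starts of the gene are not covered by this window.

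Osgin1 was the one member whose groups did not overlap. It had 85.7, 69.1, 40.5, 38.8, 70.3 and 47.2 CPM in ghrelin 1 to ghrelin 6, against 23.0, 16.5, 31.0, 27.7, 30.0 and 28.5 CPM in PBS 1 to PBS 6. The ghrelin libraries fell into a higher trio (ghrelin 1, ghrelin 2 and ghrelin 5) and a lower trio (ghrelin 3, ghrelin 4 and ghrelin 6), and even ghrelin 4, the lowest, was above PBS 3, the highest of its group. The means were 58.6 ± 19.1 CPM with ghrelin and 26.1 ± 5.46 CPM with PBS (SD, n = 6 each), a log2 fold change of 1.16 (SE 0.20). Its adjusted p of 0.0379 by edgeR's quasi-likelihood test is the value by which it was chosen. That call was kept when ghrelin 4 (adjusted p = 0.0115), PBS 5 (0.0475) or PBS 6 (0.0464) was left out and lost when any other library was. The edgeR adjusted p was 0.0866 with ghrelin 1 left out, 0.0717 with ghrelin 2, 0.0566 with ghrelin 3, 0.102 with ghrelin 5 and 0.0509 with ghrelin 6. It was 0.0808 with PBS 1 left out, 0.0554 with PBS 2, 0.0655 with PBS 3 and 0.0595 with PBS 4, and 0.107 with robust estimation of the spread. With other scalings or a stricter count filter the edgeR adjusted p was 0.0303 to 0.0382, and without a count filter 0.00119. DESeq2 gave an adjusted p of 5.63e-06. All these values come from the libraries by which Osgin1 was chosen. The log2 fold change itself lay between 1.03 and 1.26 whichever library was left out.

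**Figure D1:**
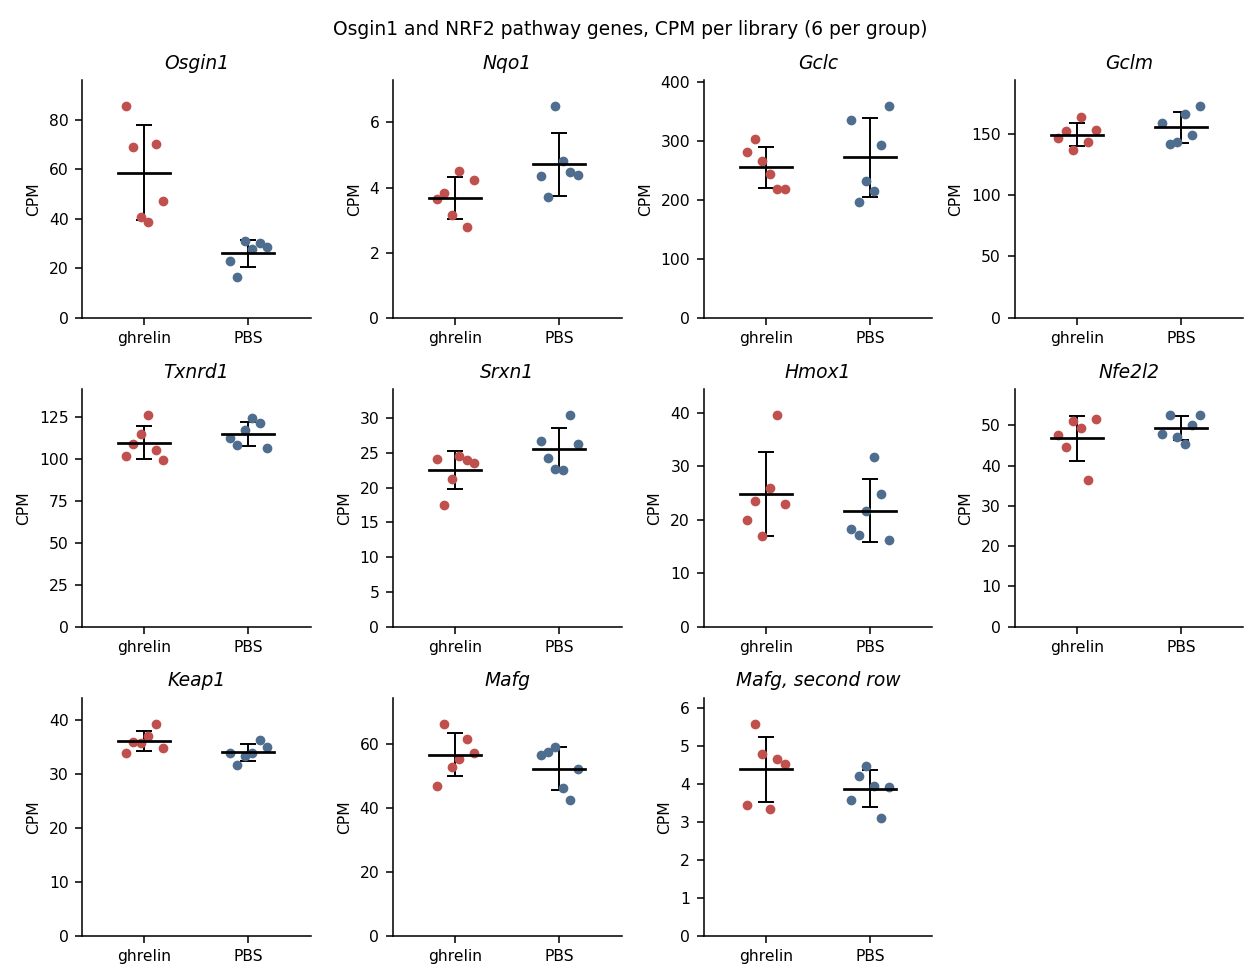
CPM of each gene row in each library (points; ghrelin left in red, PBS right in blue), with the group mean (line) and SD (bars), n = 6 per group; every vertical axis starts at 0. In the Osgin1 panel the 6 ghrelin libraries sit between 38.8 and 85.7 CPM, all above the PBS libraries, and in every other panel the groups overlap.

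None of the other 9 genes passed the test. All 10 of their rows were measured well enough to enter the fit, and 0 of 10 were called at an adjusted p under 0.05 by edgeR's quasi-likelihood test, by DESeq2, or in any of the other 19 alternative fits. Over all 14170 genes tested 0.106% were called, 0.0423% higher and 0.0635% lower, so a count of 0 in 10 rows is near the background. At an unadjusted p under 0.05 there was 1 of 10 (Nqo1), against 13.4% of all genes. The groups overlapped in each of the 10 rows, and 0.826% of all genes were without overlap, 0.367% with ghrelin higher and 0.459% with ghrelin lower. Of the 10 rows, 4 had a higher and 6 a lower value with ghrelin, with a median log2 fold change of -0.06, against 50% lower and a median of 0.00 over all genes.

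Among the enzymes, Nqo1 had the value farthest from 0. It encodes a quinone reductase and is widely used as a readout of NRF2. It had 2.79, 3.73 and 4.51 CPM with ghrelin (lowest, median and highest) and 3.72, 4.42 and 6.51 CPM with PBS. Ghrelin 1, ghrelin 3 and ghrelin 5 lay below the lowest PBS library, and the other 3 lay within the PBS range. The log2 fold change was -0.35 (SE 0.15, 95% interval -0.67 to -0.02, adjusted p = 0.34), on counts of 45 to 141 per library.

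Glutathione synthesis is started by glutamate-cysteine ligase, whose catalytic subunit is encoded by Gclc and whose modifier subunit by Gclm. Gclc was the most abundant member and ranged from 218 to 303 CPM with ghrelin (median 255) and from 197 to 360 CPM with PBS (median 262). Its lowest and highest libraries were both PBS libraries, PBS 2 and PBS 6. The log2 fold change was -0.09 (SE 0.14, 95% interval -0.39 to 0.21, adjusted p = 0.821). Gclm varied less, from 137 to 163 CPM with ghrelin (median 149) and from 142 to 173 CPM with PBS (median 154), and its log2 ratio was -0.05 (SE 0.065, 95% interval -0.19 to 0.08, adjusted p = 0.756). On the same strand Gclm overlaps the pseudogene Gm6061, which had a mean of 3.98 CPM.

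Txnrd1 encodes cytosolic thioredoxin reductase, which uses NADPH to keep thioredoxin reduced. It had 99.5 to 126 CPM with ghrelin (median 107) and 106 to 124 CPM with PBS (median 115), and ghrelin 4 held its highest value. The log2 fold change was -0.07 (SE 0.07, 95% interval -0.21 to 0.07, adjusted p = 0.682). Srxn1 encodes sulfiredoxin, which repairs over-oxidised peroxiredoxins. It had 17.5 to 24.5 CPM with ghrelin (median 23.8) and 22.5 to 30.5 CPM with PBS (median 25.3), with ghrelin 2 and ghrelin 3 below every PBS library, and a log2 fold change of -0.18 (SE 0.09, 95% interval -0.38 to 0.02, adjusted p = 0.422).

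Hmox1 encodes heme oxygenase 1, which opens the heme ring and is also abundant in the macrophages that clear red cells. It had 16.9 to 39.7 CPM with ghrelin (median 23.2) and 16.2 to 31.8 CPM with PBS (median 20.02). Ghrelin 5 and PBS 4 were the highest of their groups, and the rest of both groups lay between 16.2 and 26.0 CPM. The log2 fold change of 0.20 (SE 0.19, adjusted p = 0.702) had a 95% interval of -0.22 to 0.61; it was 0.02 without ghrelin 5, 0.34 without PBS 4 and 0.13 without PBS 6. All 11 Kupffer cell and macrophage markers were measured, and they summed to 307 to 410 CPM with ghrelin and 230 to 427 CPM with PBS (exact two-sided permutation p = 0.779). Ghrelin 5 had 364 CPM and PBS 4 had 325 CPM of these markers, and their part in the Hmox1 values was not tested. In whole liver, fewer cells of a type and less RNA per cell cannot be told apart.

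The 3 control genes lay close to their PBS levels. Nfe2l2 itself had 36.5 to 51.6 CPM with ghrelin (median 48.5) and 45.4 to 52.7 CPM with PBS (median 49.0), and ghrelin 5 was the lowest of all 12 libraries. Its log2 fold change was -0.07 (SE 0.08, 95% interval -0.24 to 0.09, adjusted p = 0.719), and it was -0.0091 without ghrelin 5. Keap1 had 33.9 to 39.3 CPM with ghrelin (median 35.8) and 31.6 to 36.2 CPM with PBS (median 33.8), the narrowest spread of the members, and its log2 ratio was 0.09 (SE 0.05, 95% interval -0.03 to 0.20, adjusted p = 0.504). Mafg had 46.8 to 66.3 CPM with ghrelin (median 56.2) and 42.4 to 58.9 CPM with PBS (median 54.3), and its log2 ratio was 0.12 (SE 0.09, 95% interval -0.08 to 0.32, adjusted p = 0.625). The second row with this symbol, ENSMUSG00000053906, is not among the GENCODE M21 genes. It had 3.34 to 5.59 CPM with ghrelin and 3.11 to 4.48 CPM with PBS (0.18 as a log2 ratio, SE 0.14, adjusted p = 0.618). How reads were divided between the rows is not known, and Mafg also overlaps Sirt7 on the same strand, which had a mean of 37.0 CPM.

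**Figure D2:**
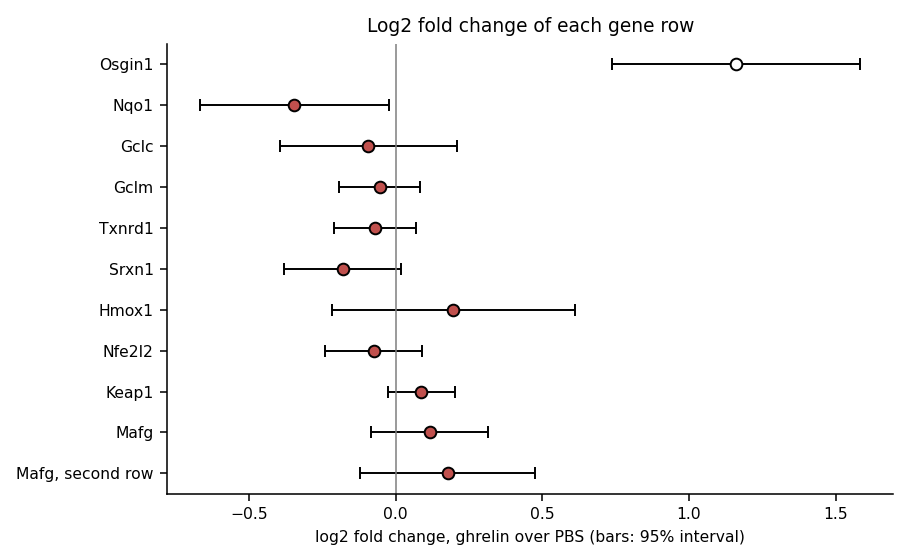
Log2 fold change of ghrelin over PBS for each gene row (points) with its 95% interval (bars) from the edgeR fit, n = 6 per group; the open point is Osgin1, which was chosen on this value. Osgin1 lies at 1.16, and the other rows lie between -0.35 (Nqo1) and 0.20 (Hmox1).

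Against the fit to all 12 libraries, leaving out some single library changed the log2 value of every other row except Keap1 by over 1.5 times. Keap1 had 0.09 in that fit and ran from 0.07 to 0.11. Between the extremes Nqo1 ran from -0.41 without ghrelin 4 to -0.23 without PBS 3, Gclc from -0.17 without PBS 2 to 0.0057 without PBS 6, and Gclm from -0.08 without ghrelin 4 to -0.02 without PBS 6. Txnrd1 ran from -0.11 without ghrelin 4 to -0.04 without ghrelin 6, Srxn1 from -0.21 without PBS 4 to -0.12 without ghrelin 2, and Mafg from 0.07 without PBS 5 to 0.17 without ghrelin 1. The second Mafg row ran from 0.10 without ghrelin 2 to 0.25 without ghrelin 4. Members also differed in how far libraries of a group lay apart. The SD of log2 CPM within groups was 0.42 for Osgin1, 0.39 for Hmox1 and 0.29 for Gclc, against 0.07 for Keap1 and 0.10 for Gclm. Counting error alone would give 0.05 for Osgin1, 0.02 for Gclc and 0.06 for Keap1. For Nqo1 the spread was 0.26 and counting error 0.16.

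Per kilobase of exon, which allows levels to be compared between genes, Osgin1 stood at place 3 of the 10 genes with ghrelin and at place 6 with PBS. It had 21.9 ± 7.15 CPM per kb with ghrelin and 9.78 ± 2.04 CPM per kb with PBS (SD, n = 6 each). With ghrelin the order of mean level was Gclc (67.7 CPM per kb), Gclm (23.7), Osgin1 (21.9), Txnrd1 (15.4), Hmox1 (14.2), Nfe2l2 (12.3), Mafg (10.1), Srxn1 (7.98), Keap1 (7.69) and Nqo1 (2.38). In that order Gclc stood clear of Gclm and Keap1 of Nqo1, and all other neighbours overlapped in range. With PBS the order was Gclc (72.2 CPM per kb), Gclm (24.6), Txnrd1 (16.2), Nfe2l2 (13.0), Hmox1 (12.4), Osgin1 (9.78), Mafg (9.30), Srxn1 (9.04), Keap1 (7.23) and Nqo1 (3.03). There the neighbours from Nfe2l2 to Srxn1 overlapped in range and the others did not.

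Library by library, the other members were not uniformly above their PBS means where Osgin1 was highest. In ghrelin 1, with Osgin1 1.74 above the PBS mean on the log2 CPM scale, 1 of the 10 other rows was above its own PBS mean, and that row, Gclc, by 0.08. In ghrelin 5, with Osgin1 1.45 above, 4 of 10 were above, Hmox1 by 0.91, while Nqo1 was at -0.71 and Nfe2l2 at -0.43. In ghrelin 2, with Osgin1 1.43 above, 5 of 10 were above, and Srxn1 was at -0.53. In the lower trio, where Osgin1 was 0.60 to 0.88 above, 5 or 6 of the 10 rows were above their PBS means, and the median of the rows in any ghrelin library lay between -0.09 and 0.04.

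**Figure D3:**
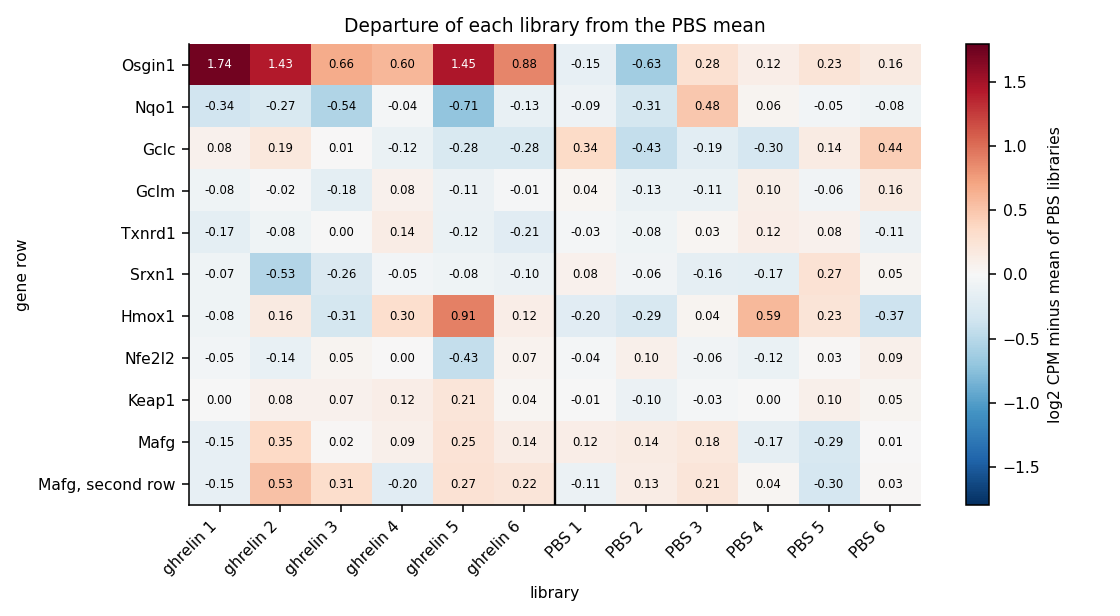
Log2 CPM of each gene row in each library minus the mean of the 6 PBS libraries for that row (ghrelin libraries left of the line, PBS right; red above, blue below, values printed in each cell). The top row, Osgin1, is between 0.60 and 1.74 in the ghrelin libraries; no other row is above 0 by more than 0.91.

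Correlations with Osgin1 were computed inside each group, since across both groups they would repeat the difference by which Osgin1 was chosen. Of 20 relations (10 rows in 2 groups of 6 libraries), none passed: the smallest exact permutation p was 0.108, and Benjamini-Hochberg adjusted values started at 0.928. With ghrelin 4 of 10 Pearson coefficients were positive and they ran from -0.64 to 0.32. With PBS 7 of 10 were positive, from -0.44 to 0.74. Without the 2 libraries whose Osgin1 lay farthest from the group median, 2 of 10 coefficients changed sign with ghrelin and 7 of 10 with PBS. The PBS libraries that remained had 27.7 to 31.0 CPM of Osgin1, too close together for the sign of r to be read.

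Some genes differed in sign between the groups. For Nqo1, r was -0.37 with ghrelin (exact permutation p = 0.432; Spearman's rho -0.54, p = 0.297; r without the 2 libraries -0.22) and 0.72 with PBS (p = 0.147; rho 0.83, p = 0.0583; r without the 2 libraries 0.65). Txnrd1 had r of -0.64 with ghrelin (exact permutation p = 0.168; rho -0.66, p = 0.175; r without the 2 libraries -0.21) and 0.52 with PBS (p = 0.286; rho 0.31, p = 0.564; r without the 2 libraries 0.01). The difference between the groups was not tested. Nfe2l2 was negative in both, at -0.57 with ghrelin (exact permutation p = 0.229; rho -0.60, p = 0.242; r without the 2 libraries -0.84) and -0.43 with PBS (p = 0.432; rho -0.37, p = 0.497; r without the 2 libraries 0.09). Adjusted over the 20 relations, each Pearson p in this paragraph was 0.928 and each Spearman p was 1.

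The genes whose pattern was most like that of Osgin1 were taken from outside the pathway by their group-centred Pearson r over the 12 libraries, that is after subtraction of each group's mean from log2 CPM, among 11349 genes. Wibg, a factor that takes apart the exon junction complex, had 0.89, and Dbn1, an actin-binding protein, 0.84. Ppp2cb, a catalytic subunit of protein phosphatase 2A, Stat5a, which carries growth hormone signals to the nucleus, and Stk4, a kinase of the Hippo pathway, had 0.81 each. Over those genes the median was 0.00 and the 99th percentile 0.63. Among the members the highest were Hmox1 with 0.34 (0.54 without ghrelin 1, 0.20 without ghrelin 3), Gclc with 0.32 (0.06 without PBS 2) and Keap1 with 0.25 (0.61 without ghrelin 1, -0.02 without PBS 2), so their order depends on single libraries, and Nfe2l2 had -0.53 (-0.67 without ghrelin 1). These values describe 12 libraries that also share depth and scaling. The 5 genes were picked as the highest of 11349, so their r is a description without a test. Dbn1 had only 19 to 36 counts per library and Wibg 117 to 169, and the part of counting error in their r was not tested. Of the 5 genes, Stat5a had 11.2 ± 2.81 CPM with ghrelin and 7.48 ± 0.762 CPM with PBS (SD, n = 6 each), a log2 difference of 0.58 with an SE of 0.14 (adjusted p = 0.14; 0.0165 by DESeq2). The other 4 had log2 fold changes between -0.26 (Dbn1) and 0.00 (Stk4), a sign that for Wibg and Stk4 turned when single libraries were left out.

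Neighbours of Osgin1 on chromosome 8 did not pass. The nearest tested gene on one side is Mlycd, malonyl-CoA decarboxylase, 23022 bases away, with 69.3 ± 7.64 CPM with ghrelin and 61.4 ± 3.84 CPM with PBS (SD, n = 6 each; log2 fold change 0.17, SE 0.07, adjusted p = 0.314). On the other side Mbtps1, the site-1 protease, 61900 bases away, lay at 0.08 on the log2 scale (SE 0.05, adjusted p = 0.496). Osgin2, the relative of Osgin1, had 2.70 ± 1.34 CPM with ghrelin and 2.50 ± 0.764 CPM with PBS (SD, n = 6 each; log2 fold change 0.13, SE 0.28, adjusted p = 0.886), and -0.16 without ghrelin 4.

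The wider NRF2 programme was read from 6 lists of 64 genes, of which 60 were tested. None was called in either direction by edgeR's quasi-likelihood test. DESeq2 gave an adjusted p to 57 of the 60 and called 2 higher (Gstp1 and Gstp2) and 1 lower (Glrx). Over all genes it called 1.83% of the 11146 to which it gave an adjusted p. By edgeR 24 were higher and 36 lower, and the median log2 fold change was -0.04, against 0.00 over all genes. At an unadjusted p under 0.05 there were 9, or 15%, against 13.4% of all genes. Slc7a11, the cystine importer, Gpx2, Mgst2 and Cbr3 had too few counts for the fit.

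In glutathione synthesis and transfer 6 of 15 tested genes were higher and 9 lower, with a median of -0.04. Mgst1, a microsomal glutathione transferase, had 2431 ± 244 CPM with ghrelin and 2410 ± 244 CPM with PBS (log2 fold change 0.01, SE 0.08), a sign that turned when single libraries were left out. Gsta3 had -0.18 (SE 0.09). Gstp1, a transferase that is higher in male liver, had 1037 ± 120 CPM with ghrelin and 709 ± 166 CPM with PBS (log2 fold change 0.55, SE 0.14, adjusted p = 0.138; adjusted p = 0.0129 by DESeq2). Its close paralog Gstp2, named after its value was seen, had 0.92 (adjusted p = 0.0841; 0.00139 by DESeq2), and how reads were split between them is uncertain.

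Thioredoxin and peroxiredoxin genes were 2 higher and 2 lower of 4 tested. Prdx1, a peroxiredoxin, had 643 ± 62.9 CPM with ghrelin and 647 ± 17.2 CPM with PBS (log2 fold change -0.01, SE 0.07, positive in some alternatives), Prdx6 had 0.12 (SE 0.07) and thioredoxin itself, Txn1, 0.01 (SE 0.06). Glrx, glutaredoxin, named after its value was seen, lay farthest from 0 at -0.37 (SE 0.08, adjusted p = 0.0985; 0.00784 by DESeq2). In NADPH supply, which feeds both systems, 2 of 6 were higher and 4 lower (median -0.04). Idh1, isocitrate dehydrogenase, had -0.07 (SE 0.07), transketolase, Tkt, -0.01 (SE 0.08, positive in some alternatives), and malic enzyme, Me1, -0.23 (SE 0.25).

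Of 15 tested genes of quinone and carbonyl detoxification and export, 6 were higher and 9 lower, with a median of -0.08. By edgeR 4 had an unadjusted p under 0.05 (26.7%, against 13.4% of all genes), all 4 of them lower with ghrelin. Abcc3, named after its value was seen, lay farthest from 0 at -0.47 (SE 0.14, adjusted p = 0.192). Ugt1a6a, a glucuronosyltransferase, had 810 ± 61.1 CPM with ghrelin and 896 ± 61.9 CPM with PBS (log2 fold change -0.15, SE 0.07, adjusted p = 0.357). Cyp2a5, a P450 induced in liver stress, had 477 ± 150 CPM with ghrelin and 642 ± 129 CPM with PBS (log2 fold change -0.43, SE 0.19, adjusted p = 0.342). Abcc2, an export pump of the canalicular membrane, had -0.14 (SE 0.09). In heme breakdown and iron storage 2 of 6 were higher and 4 lower (median -0.03): the ferritin chains Ftl1 and Fth1 had 0.12 (SE 0.07) and -0.03 (SE 0.06), and Fech, which makes heme, had -0.09 (SE 0.05).

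Regulators and partners of NRF2 were 6 higher and 8 lower of 14 tested (median -0.02). Sqstm1, which draws Keap1 into autophagy and is itself an NRF2 target, had 343 ± 31.8 CPM with ghrelin and 327 ± 25.6 CPM with PBS (log2 fold change 0.07, SE 0.07), Park7 had 0.05 (SE 0.05), and the related factor Nfe2l1 had 0.14 (SE 0.10). Antioxidant enzymes outside the classical set were 11 higher and 3 lower of 14, with a median of 0.04 and none called by edgeR or DESeq2. Catalase, Cat, had 2947 ± 92.2 CPM with ghrelin and 2842 ± 282 CPM with PBS (log2 fold change 0.05, SE 0.07), Gpx1, glutathione peroxidase 1, had 1276 ± 91.5 CPM with ghrelin and 1078 ± 141 CPM with PBS (0.24, SE 0.08, adjusted p = 0.248), and selenoprotein P, listed as Sepp1, had -0.08 (SE 0.07).

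p53 targets, read because OSGIN1 is known as one in human cells, were 7 higher and 10 lower of 17 tested, with a median of -0.02 and none called by edgeR. Trp53inp1, a stress protein of the p53 pathway, had 79.0 to 191 CPM with ghrelin (median 126) and 149.5 to 367 CPM with PBS (median 279), or -1.08 as a log2 ratio (SE 0.26, adjusted p = 0.129; adjusted p under the threshold in 2 of 20 alternatives, the lowest 0.0239). Its sign was opposite to that of Osgin1. Ei24 had -0.05 (SE 0.08) and Perp -0.02 (SE 0.05).

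**Figure D4:**
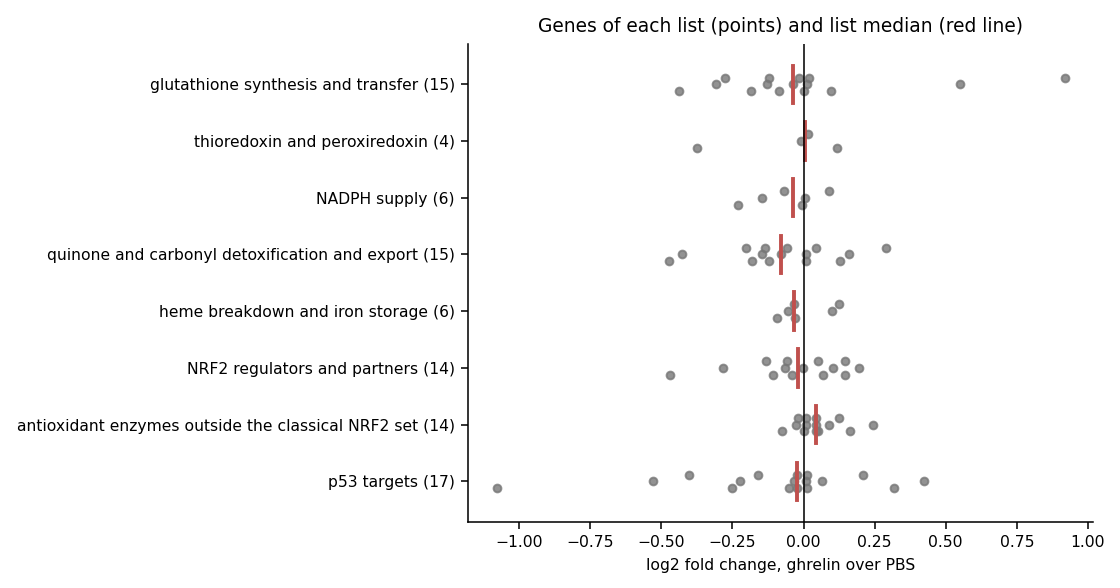
Log2 fold change of ghrelin over PBS for each tested gene of 8 lists (points; number tested in parentheses) and the median of each list (red line). The medians lie between -0.08 and 0.04, and no gene of these lists was called by edgeR; DESeq2 called Gstp1, Gstp2, Glrx and Trp53inp1.

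Among markers of other cells, the 8 neutrophil markers, of which 3 passed the count filter and Camp was at 0 in every library, summed to 0.816 to 4.396 CPM with ghrelin and 3.76 to 9.55 CPM with PBS (exact two-sided permutation p = 0.0368, adjusted 0.268 over 8 values). Endothelial, stellate, cholangiocyte and erythroid sums overlapped between the groups, with exact permutation p values from 0.459 to 0.734. Their part in the values of the members was not tested.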

How the data were processed

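Liver RNA was measured in 12 libraries, 6 per group, with groups taken from the titles. The table deposited by the authors holds whole-number counts per gene, with no scaling. The submitters' processing notes name STAR 2.4.0i as aligner and mm10 as genome; which tool counted, against which annotation and on which strand, is not given in the sources used here. No label says that libraries come from separate animals, so the p-values cover the spread between libraries, which may be technical.

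Genes passing filterByExpr of edgeR 4.0.16 (minimum count 10) were scaled by TMM and tested with the quasi-likelihood test, two-sided, in R 4.3.3, with Benjamini-Hochberg adjustment over 14170 genes and a threshold of 0.05; SE is the absolute log2 fold change over the square root of F. Log2 CPM uses a prior count of 2. DESeq2 1.42.0, other scalings and filters, a block and left-out libraries were alternatives. On simulated counts for this comparison over 14170 genes, 27 of 50 genes changed by 0.5 (log2), 41 of 50 by 1, 47 of 50 by 1.5 and 48 of 50 by 2 were recovered, with 7 false calls. The real fit called 15 genes, fewer than the simulation recovered at any size. With fewer calls the adjustment sets a stricter cut on the unadjusted p, so these recovered shares are too high for the real fit. Within groups, pairs of libraries differed by 11.7 to 48.6 times counting variance (chi-square divided by its degrees of freedom), and no library was a copy of another. Counting limits cover counting error only.

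Members, lists and tests were chosen with earlier results of these data known. Named genes are the members, the 3 most abundant tested genes of each list and any called one, the 5 genes most like Osgin1, its tested neighbours and Osgin2. Gstp2, Glrx and Abcc3 are mentioned outside this rule, after their values were seen. The planned 18 correlations became 20 because 2 rows carry the symbol Mafg. Exon lengths and positions come from GENCODE M21 on GRCm38, the assembly of mm10, matched by identifier for 98.3% of tested genes, and promoters from RefSeq on GRCm38.p6.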

Additional observations from a re-analysis of the deposited data

Results flagged for a closer look

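Of 102 sets of 6 values examined (each named gene, marker sum and the library total in each group), 2 held a library far from the others, where chance gives about 1 in 20. Me1 had 156 CPM in ghrelin 4, and the next ghrelin library had 61.6 CPM; without ghrelin 4 its log2 fold change was -0.61 (adjusted p = 0.0743). The summed stellate cell markers were 395 CPM in PBS 4, and the next PBS library had 365 CPM.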

How the results depend on the processing

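Over 20 alternatives 0 of the 10 other rows were called, and their log2 fold changes kept their sign, except that of Gclc, which was -0.167 to 0.0057 when single libraries were left out (0.0057 without PBS 6). Osgin1 lay between 1.03 and 1.26. The number of genes called, 15, became 204 with DESeq2, 63 without a count filter, 9 with robust estimation, 58 with the replicate number as a block and 0 to 32 when single libraries were left out; the cause was not tested. With the block Osgin1 had an adjusted p of 0.0545. The replicate numbers are not said to pair animals: deviations of same-numbered libraries correlated by -0.08 to 0.27, and 3 of 6 libraries correlated best with their own number. With upper quartile scaling Prdx1 had 0.0064, Tkt 0.0069 and Wibg 0.0012, and without a filter Stk4 had -0.0013, each turned in sign. When single libraries were left out, values that turned ranged from -0.0111 to 0.049 for Txn1, -0.0149 to 0.0269 for Stk4, -0.0327 to 0.0416 for Prdx1, -0.0533 to 0.0466 for Tkt, -0.0295 to 0.0646 for Mgst1, -0.0489 to 0.0347 for Wibg and -0.163 to 0.248 for Osgin2. Depth limits Keap1, the second Mafg row and Nqo1 most: counting alone gives SDs of 0.06, 0.16 and 0.16 (log2) against within-group SDs of 0.07, 0.24 and 0.26.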

Other observations

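Between the members themselves, 110 relations (55 pairs of rows in 2 groups) were computed, and 0 passed after adjustment. At an unadjusted exact permutation p under 0.05 there were 4, no more than the 5% that chance gives. The closest pair was Txnrd1 and Hmox1 in the PBS libraries, with r = 0.97 (exact permutation p = 0.00139, adjusted 0.153) and rho = 1 (p = 0.00278, adjusted 0.306), and r = 0.99 without the 2 libraries farthest from the median of Txnrd1. An exact p of 0.00139 is the smallest that 720 pairings can give. In the ghrelin libraries Txnrd1 and Hmox1 had r = -0.05 (exact permutation p = 0.933; rho 0.14, p = 0.803; r without 2 libraries -0.40). Gclc and Gclm, the subunits of one enzyme, had r of -0.09 with ghrelin (exact permutation p = 0.869; rho -0.20, p = 0.714; r without 2 libraries -0.16) and 0.58 with PBS (p = 0.207; rho 0.66, p = 0.175; r without 2 libraries -0.04).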
